A study of Mus musculus with 18 samples.

Results

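The phase II conjugation enzymes of mouse liver were examined after ischemia-reperfusion (IR) and after sham surgery. They were taken as the protein-coding genes whose symbols begin with Ugt1, Ugt2, Ugt3, Sult, Gsta, Gstk, Gstm, Gsto, Gstp or Gstt. Of 63 such genes in the deposited table, 50 had a normalised count of at least 10 in at least 3 of the 18 libraries and were kept, out of 13590 genes that passed the same filter and 47729 rows in all. The 50 comprised 16 sulfotransferases, 5 UGT1 genes, 10 UGT2 and UGT3 genes, 4 alpha-class and 7 mu-class glutathione transferases, and 8 glutathione transferases of the kappa, omega, pi and theta classes. Among the 50, 45 reached the filter within each surgery group, 4 did so only through the sham libraries (Sult2a3, Sult2a4, Sult2a5 and Sult2a6) and 1 only through the IR libraries (Gsta1). A gene kept only through the group where it is high was selected partly for that difference, so the calls of these 5 are given as a description. The other 13 genes were Sult1c1, Sult2b1, Sult4a1, Sult6b1, Sult6b2, Ugt1a2, Ugt1a7c, Ugt1a8, Ugt1a10, Ugt2a1, Ugt2a2, Gsto2 and Gstt4. The highest value among them was 15.5, for Ugt1a7c in 1 library.

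The study sequenced liver RNA of mice of 3 genotypes (Wt, Il22-/- and Il22bp-/-), each given IR or sham surgery, with 3 samples for every combination. Il22 encodes the cytokine interleukin-22, and Il22bp (gene symbol Il22ra2) encodes a soluble protein that binds it. The labels give neither sex, age, strain nor the time after surgery, and state neither what drives the knockouts nor that samples came from separate litters, so p-values measure the spread between these libraries. The table heads 9 columns IR and 9 columns W with a number and no genotype. The W columns were read as sham by elimination, and each surgery group below therefore holds a mixture of genotypes that was not resolved. Il22 was listed at 0 in all 18 libraries. Il22ra2 lay between 29.9 and 56.0 in 6 libraries, 3 IR and 3 sham, and at 1.02 or below in the other 12, and no genotype was assigned from it.

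Phase II enzymes attach a polar group to drugs, steroids, bile acids, bilirubin and reactive electrophiles, which makes these compounds easier to excrete. UDP-glucuronosyltransferases (UGT) transfer glucuronic acid, sulfotransferases (SULT) transfer sulfate and glutathione S-transferases (GST) transfer glutathione. The hepatocyte is the main site of these reactions in liver. Several of the mouse genes are known to be expressed at different levels in male and female liver. Among them are Gstp1, which is higher in males, and some of the Sult2a and Sult3a genes, Sult2a1 and Sult3a1 included, which are higher in females.

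The surgery groups also differed in sex-linked transcripts, and this touches every result below. The summed count of the Y-linked genes Ddx3y, Uty, Kdm5d and Eif2s3y was 444 to 1034 in 6 of the 9 IR libraries. It was 0 to 1.84 in the other 3 IR libraries and 0 to 2.07 in the 9 sham libraries. Xist, the RNA made from the inactive X chromosome of female cells, was 0 to 11.5 in 4 of the 6 IR libraries with Y-linked reads. The other 2 of these 6, IR libraries 5 and 8 by their column headers, had Xist counts of 542 and 964 beside their Y-linked reads. Xist was 2312 to 4305 in the 3 IR libraries without Y-linked reads and 1751 to 5335 in the sham libraries. Y-linked transcripts were thus present in 6 IR libraries and in no sham library, so sex is partly confounded with surgery over the 18 libraries. The main results are therefore given also for the 3 IR libraries without Y-linked reads against the 9 sham libraries, called the smaller comparison below, which was added after the data were seen. A fit of all 18 libraries with a term for Y-linked reads gave the same estimates as the smaller comparison with other errors, and is named where it changed a call.

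**Figure D1:**
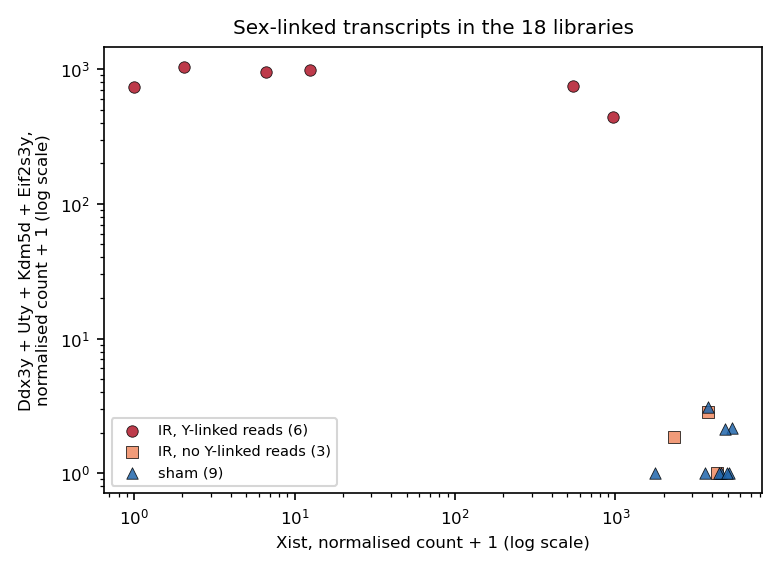
Xist (horizontal axis) against the summed count of 4 Y-linked genes (vertical axis), both as normalised count + 1 on log scales, with 1 point per library. The 6 IR libraries with Y-linked reads lie at the top, and the other 3 IR libraries lie with the 9 sham libraries at the lower right.

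The deposited normalised counts summed to between 9088020 and 11588400 per IR library and to between 11457900 and 12650600 per sham library. Whole reads recovered from the normalised values came to between 10176600 and 12558200 in the 9 IR libraries and between 10716900 and 12202400 in 8 sham libraries. Across all genes tested, 75.4% were called at an adjusted p under 0.05 in limma, 38.2% higher and 37.2% lower in IR, and the median log2 fold change was 0.02. Scaling every library to the same total moved that median to 0.26 and the share of calls that were higher in IR to 61.7%, against 50.7% with the deposited scaling. Hepatocyte markers, present in every library as the liver label implies, summed to between 776534 and 1209280 in IR and to between 2042400 and 2488830 in sham. Of the 9 hepatocyte markers tested, 7 were lower and 2 higher, with a median log2 fold change of -0.84. Neutrophil markers summed to between 313 and 4069 in IR and to between 52.8 and 124 in sham, and 7 of 7 were higher. Markers of pancreas and kidney summed to 2.09 or less in every library. In bulk tissue, fewer hepatocytes and less RNA per hepatocyte cannot be told apart, and the part of these marker shifts in the results below was not tested.

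The promoters of 2 pairs of close relatives are shown because the genes of each pair differed in direction between IR and sham over all 18 libraries, as described below. Gsta1 and Gsta2 lie near each other on chromosome 9, and Ugt2b38 and Ugt2b37 lie in the Ugt2 cluster on chromosome 5. The windows run from 250 bases before to 50 bases after the RefSeq transcript start on GRCm38.p6, 5′ to 3′ on the strand of the gene. Capitals mark the bases that differ from the other window of the pair in a pairwise alignment or have no partner in it. The Gsta1 window is chr9:78230419-78230718 on the plus strand and the Gsta2 window is chr9:78347096-78347395 on the minus strand. The Ugt2b38 window is chr5:87424154-87424453 and the Ugt2b37 window is chr5:87254739-87255038, both on the minus strand.
Gsta1: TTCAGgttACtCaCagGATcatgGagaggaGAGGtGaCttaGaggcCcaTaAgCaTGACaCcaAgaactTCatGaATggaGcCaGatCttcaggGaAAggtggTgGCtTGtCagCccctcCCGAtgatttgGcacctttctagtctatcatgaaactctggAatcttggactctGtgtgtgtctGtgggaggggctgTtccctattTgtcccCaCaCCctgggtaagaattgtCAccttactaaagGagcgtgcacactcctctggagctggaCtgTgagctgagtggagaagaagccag
Gsta2: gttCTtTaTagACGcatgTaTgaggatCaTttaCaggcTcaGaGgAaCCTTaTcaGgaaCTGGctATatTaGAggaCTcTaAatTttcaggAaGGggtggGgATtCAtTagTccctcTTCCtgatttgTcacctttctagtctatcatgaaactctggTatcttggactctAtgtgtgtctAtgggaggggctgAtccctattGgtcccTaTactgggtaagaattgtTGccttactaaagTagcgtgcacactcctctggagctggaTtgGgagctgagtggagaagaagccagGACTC
Ugt2b38: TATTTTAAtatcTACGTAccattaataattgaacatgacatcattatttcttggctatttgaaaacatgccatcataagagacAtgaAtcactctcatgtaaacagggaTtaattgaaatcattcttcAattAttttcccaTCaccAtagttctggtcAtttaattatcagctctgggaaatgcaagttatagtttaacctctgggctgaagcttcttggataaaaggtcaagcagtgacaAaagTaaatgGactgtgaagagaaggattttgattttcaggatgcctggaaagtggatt
Ugt2b37: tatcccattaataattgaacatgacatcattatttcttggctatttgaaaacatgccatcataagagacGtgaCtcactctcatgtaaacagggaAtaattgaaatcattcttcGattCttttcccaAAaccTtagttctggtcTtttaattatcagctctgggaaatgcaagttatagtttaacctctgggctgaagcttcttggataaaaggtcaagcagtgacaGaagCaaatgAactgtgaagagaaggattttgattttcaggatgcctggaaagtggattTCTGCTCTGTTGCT
The Gsta1 and Gsta2 windows were identical at 232 of 289 aligned bases (80.3%). The Ugt2b38 and Ugt2b37 windows were identical at 274 of 286 aligned bases (95.8%). The windows of Gstp1 and Gstp2, which both rose, were identical at 243 of 282 aligned bases (86.2%).

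The window of Gsta3, the most abundant member per kb of exon in sham liver, is shown because it holds 2 of the 3 motifs searched. It is chr1:21240335-21240634 on the plus strand, and capitals mark the matches to GTTAAT, a core motif of the liver factor HNF1, and to TGACNNNGC, the core of the element bound by the oxidative stress factor NRF2.
Gsta3: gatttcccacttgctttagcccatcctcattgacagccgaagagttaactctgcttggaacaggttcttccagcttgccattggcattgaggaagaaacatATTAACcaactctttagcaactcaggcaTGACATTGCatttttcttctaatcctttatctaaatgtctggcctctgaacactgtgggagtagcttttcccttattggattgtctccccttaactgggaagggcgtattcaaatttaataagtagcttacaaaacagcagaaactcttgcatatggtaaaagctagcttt
Over both strands, GTTAAT was found in 13 of 51 windows of the 43 members with a window (25.5%), against 7.10% of all 32851 windows in the RefSeq table. These included 7 of 15 SULT windows and 3 of 4 UGT1 windows. Among the 7 were the windows of Sult2a3, Sult2a4, Sult2a5 and Sult2a6, genes of 1 cluster that passed the filter only through sham. Windows of such close relatives are not independent of each other. TGACNNNGC was found in 3 of 51 member windows (5.88%) against 12.4% of all windows, namely in windows of Gsta3, Gstm5 and Gstm7. GCGTG, the core of the element bound by the aryl hydrocarbon receptor, was found in 10 of 51 member windows (19.6%) against 32.4% of all windows. Matches of different motifs overlapped in 1 of the 51 windows, and a match is a description of letters only.

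The comparison of IR with sham asks how each conjugation gene differs between injured and sham-operated liver. Of the 50 genes, 44 were lower in IR (37.2% of all genes tested were), 5 were higher (38.2% of all genes tested were) and 1, Sult5a1, was not called. Of the 45 genes that passed the filter within each group, 40 were lower and 4 higher. The 5 higher genes were Sult1e1, Gsta1, Gstp1, Gstp2 and Ugt2b38. The median log2 fold change of the 50 was -2.09 and that of the 45 was -1.97, against 0.02 over all genes tested. Of the 44 lower genes, 41 were lower by at least 2-fold and 26 by at least 4-fold. Both counts include Sult2a3, Sult2a4, Sult2a5 and Sult2a6, which passed the filter only through sham. Over all 13590 genes tested, 2377 were called lower by at least 2-fold. The count over all genes at 4-fold was not made, so the 26 are a description only. In 31 genes the 9 IR and 9 sham libraries did not overlap, as in 38.6% of all genes tested. In 30 of them, Sult2a5 included, IR was lower, as in 19.5% of all genes tested. Set against sham, the 3 IR libraries without Y-linked reads gave 42 lower genes (33.4% of all genes tested were), 4 higher genes (33.5% of all genes tested were) and a median of -1.78. In that smaller comparison 67% of all genes tested were called in either direction. Of the 45 genes, 40 were lower and 3 higher there, with a median of -1.70. Both comparisons called 41 genes lower and 4 higher. With a term for Y-linked reads, 40 of the 50 were lower and 4 higher, beside 4272 lower and 4312 higher of all 13590 genes tested. Of the 45 genes, 38 were lower and 3 higher in that fit. In the smaller comparison the groups did not overlap in 35 genes (51.2% of all genes tested), and 34 of these were lower (25.9% of all genes tested). Between libraries of the same group the members varied more in IR, where the median SD was 0.59 on the log2 scale, than in sham, where it was 0.30. Over all genes tested the medians were 0.34 and 0.23. In the 3 IR libraries without Y-linked reads the median SD of the members was 0.50, and that of all genes tested was 0.29.

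**Figure D2:**
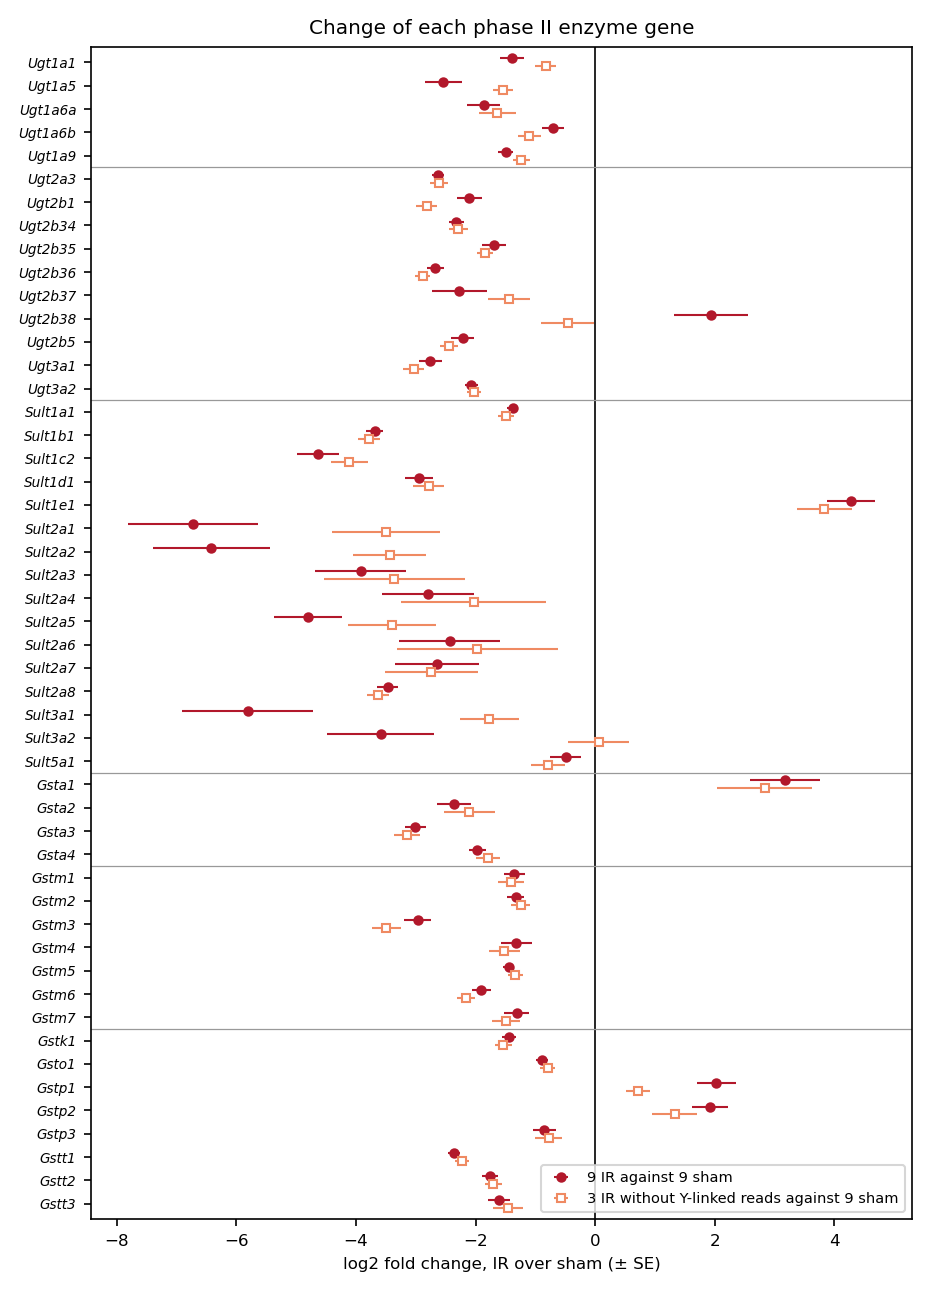
Log2 fold change of IR over sham for each of the 50 genes, with its SE, in all 18 libraries (filled circles) and with the 3 IR libraries without Y-linked reads against the 9 sham libraries (open squares), grouped by family. Most points lie left of 0, and the comparisons differ most for Sult2a1, Sult2a2, Sult3a1, Sult3a2 and Ugt2b38.

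**Figure D3:**
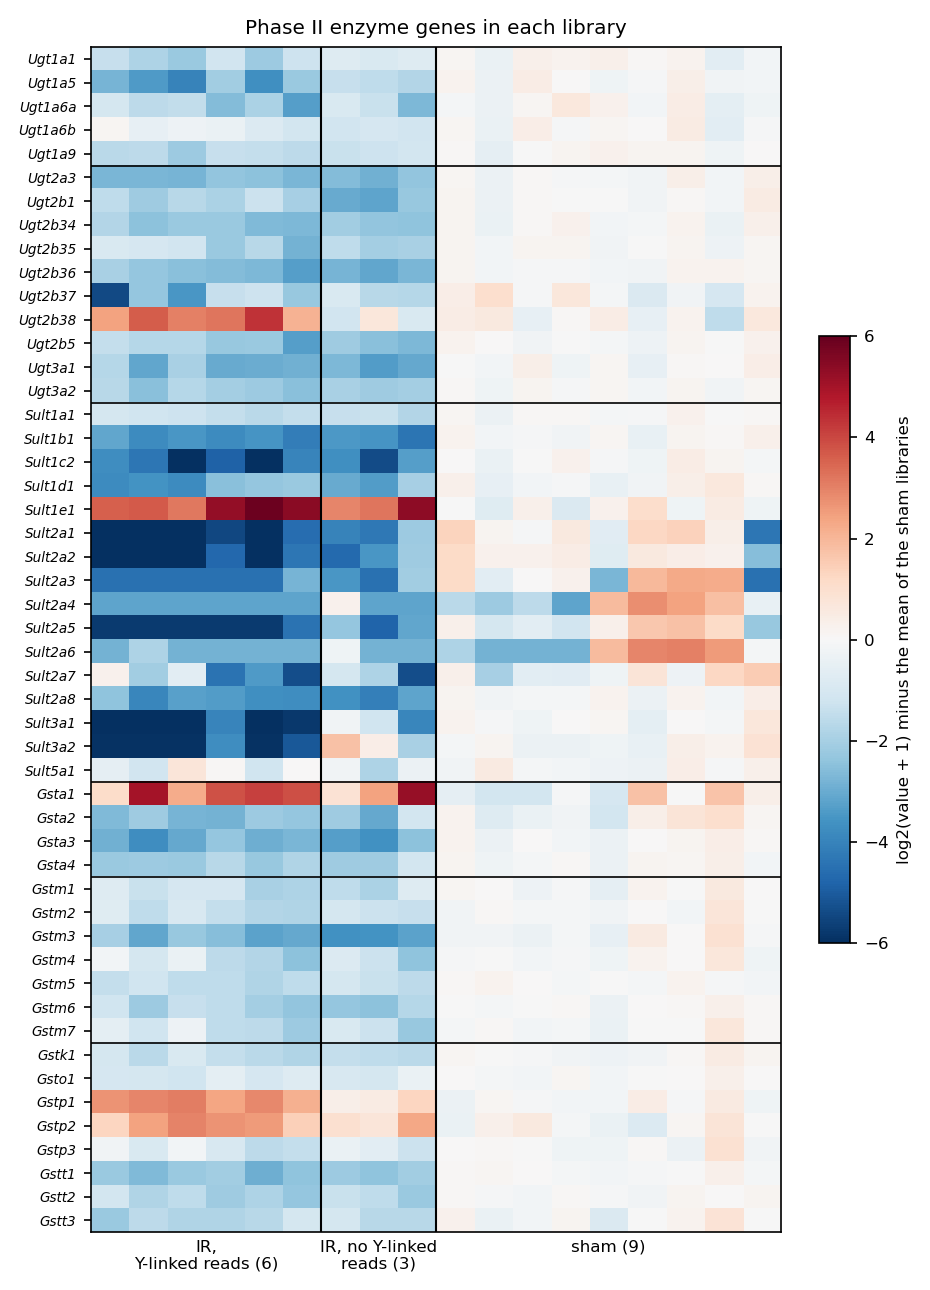
Each of the 50 genes (rows, by family) in each of the 18 libraries (columns), coloured by log2(value + 1) minus the mean of the 9 sham libraries. Blue, below the sham mean, fills most of the IR columns, and the red rows are Sult1e1, Gsta1, Gstp1, Gstp2 and, in the 6 IR columns with Y-linked reads at the left, Ugt2b38.

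The UGT2 and UGT3 enzymes, which glucuronidate steroids, bile acids and many drugs (UGT2) or use other sugars (UGT3), fell in 9 of 10 genes, with a median log2 fold change of -2.24 (-2.37 without the Y-linked libraries). Their summed level per kb of exon had a median of 4016 in IR and 18738 in sham. The IR sums lay between 2710 and 5769 and the sham sums between 16308 and 22816, so the groups did not overlap. Ugt2b36 (ENSMUSG00000070704, chr5:87065927-87092555, minus strand), the most abundant UGT per kb in sham, had a lowest, median and highest count of 1112, 1708 and 2904 in IR and of 9675, 10532 and 12879 in sham. Every IR library was below every sham library, a log2 fold change of -2.67 ± 0.14 (SE, limma adjusted p = 1.68e-12, n = 9 each), or 6.39-fold lower. It was -2.89 ± 0.13 in the 3 IR libraries without Y-linked reads.

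Ugt2b5, second in abundance, had counts of 864, 1871 and 3260 in IR and of 6912, 8620 and 10533 in sham (-2.22 ± 0.19; -2.45 ± 0.15 in the smaller comparison). The groups did not overlap. Ugt2a3 had counts of 682, 745 and 967 in IR and of 3975, 4788 and 6407 in sham. This was the smallest adjusted p of any member (3.00e-14), with a log2 fold change of -2.63 ± 0.10 and no overlap (-2.61 ± 0.15 in the smaller comparison). Ugt2b1, Ugt2b34, Ugt2b35, Ugt3a1 and Ugt3a2 also fell without overlap, with log2 fold changes of -2.10, -2.32, -1.69, -2.75 and -2.07. In the smaller comparison these were -2.82, -2.29, -1.84, -3.04 and -2.02. Ugt2b1 differed within IR: it lay between 1437 and 2541 in the 6 libraries with Y-linked reads and between 701 and 1278 in the 3 without.

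Ugt2b38 and Ugt2b37, whose promoter windows are given above, differed in direction. Ugt2b38 had counts of 8.81, 115 and 440 in IR and of 6.58, 24.4 and 32.7 in sham, a log2 fold change of 1.93 ± 0.62 (limma adjusted p = 0.00844). The 6 IR libraries with Y-linked reads lay between 91.6 and 440, above all sham libraries. The 3 IR libraries without them lay between 8.81 and 34.0, overlapping sham, with a log2 fold change of -0.46 ± 0.45 (limma adjusted p = 0.374). Ugt2b37 had counts of 7.32, 106 and 183 in IR and of 176, 331 and 702 in sham (-2.27 ± 0.46; -1.44 ± 0.35 in the smaller comparison). Of the 50-base stretches in the exons of Ugt2b38, 37.4% also occurred in other genes, mostly in Ugt2b5, and the counts of these relatives are uncertain to that extent.

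The 5 UGT1 genes, which include Ugt1a1, the enzyme that conjugates bilirubin, were all lower in both comparisons, with medians of -1.49 and, without the Y-linked libraries, -1.24. They are transcribed from separate first exons on chromosome 1 (88070800 to 88219003) and share their later exons, so between 50.3% and 60.6% of the exon length of each overlaps another and their separate counts are uncertain. Ugt1a1 had counts of 245, 479 and 668 in IR and of 737, 1248 and 1399 in sham. The groups did not overlap (-1.39 ± 0.20, limma adjusted p = 2.55e-06, 2.62-fold lower). Within IR, the 6 libraries with Y-linked reads lay between 245 and 520 and the 3 without between 596 and 668, and the log2 fold change over these 3 was -0.83 ± 0.18. Ugt1a5 and Ugt1a9 showed the same order within IR, with no overlap between its 2 kinds of library. Ugt1a5 had counts of 48.0, 171 and 305 in IR and of 621, 769 and 1097 in sham (-2.54 ± 0.31; -1.54 ± 0.16 in the smaller comparison). Ugt1a9, an enzyme for phenols, changed by -1.49 ± 0.13, Ugt1a6a by -1.87 ± 0.28 and Ugt1a6b by -0.70 ± 0.18. In the smaller comparison these were -1.24 ± 0.14, -1.64 ± 0.31 and -1.10 ± 0.20.

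The sulfotransferases showed the widest range, with 14 of 16 lower, 1 higher and a median of -3.53 (-2.76 without the Y-linked libraries, with 12 lower and 1 higher). Sult2a3, Sult2a4, Sult2a5 and Sult2a6, kept only through sham, are among the 14. Their summed level per kb had a median of 2978 in IR and 14421 in sham. The IR sums reached 3979 and the sham sums began at 12232. Sult1a1, which sulfates small phenols, was the most abundant per kb in sham, with counts of 2061, 2643 and 3286 in IR and of 5454, 7129 and 8288 in sham. It fell without overlap by 1.38 ± 0.09 on the log2 scale (by 1.49 ± 0.13 in the smaller comparison), and its share of the summed SULT level was 41.6 to 78.5% in IR libraries against 26.9 to 34.8% in sham libraries.

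Sult1b1, which sulfates thyroid hormone and phenols, had counts of 34.4, 62.1 and 84.7 in IR and of 540, 772 and 921 in sham. It was 12.9-fold lower with no overlap (-3.69 ± 0.15, limma adjusted p = 4.33e-14; -3.79 ± 0.19 in the smaller comparison). Sult2a8, a hepatic bile acid sulfotransferase of the mouse, had counts of 624, 865 and 2040 in IR and of 8298, 10063 and 14218 in sham (-3.47 ± 0.17; -3.63 ± 0.19). All IR libraries lay below all sham libraries, 11.1-fold lower. Sult1c2 (-4.64 ± 0.35) and Sult1d1 (-2.95 ± 0.24), an enzyme for catecholamines in the mouse, also fell without overlap. In the smaller comparison these were -4.11 ± 0.31 and -2.79 ± 0.26.

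Sult1e1, the estrogen sulfotransferase, moved the other way. It had counts of 101, 170 and 772 in IR and of 6.29, 11.9 and 26.9 in sham. Every IR library was above every sham library, 19.4-fold higher (log2 fold change 4.28 ± 0.40, limma adjusted p = 5.62e-09). The 3 IR libraries without Y-linked reads lay between 101 and 542, with a log2 fold change of 3.83 ± 0.46, or 14.2-fold. Sult1e1 (ENSMUSG00000029272, chr5:87575969-87591594, minus strand) is in 1 cluster with Sult1b1 and Sult1d1, which fell, within chr5:87513339-87591594.

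The Sult2a and Sult3a genes encode enzymes that sulfate steroids, bile acids and amines. Among the 50 genes, the log2 fold changes of Sult3a1, Sult3a2, Sult2a1 and Sult2a2 moved most between the full and the smaller comparison, followed by Ugt2b38, while Sult2a8 moved little. Sult2a1, the classic hydroxysteroid sulfotransferase, was 0 in IR libraries 1, 2, 4 and 7, which had Y-linked reads and little Xist. It was 22.5 and 41.7 in IR libraries 5 and 8, which had both Y-linked reads and Xist, and 61.7, 51.4 and 221 in IR libraries 3, 6 and 9, which had no Y-linked reads. In sham it was 49.6 to 2683 with a median of 1310. The log2 fold change was -6.72 ± 1.09 over all libraries and -3.50 ± 0.90 (limma adjusted p = 0.00295) with the 3 IR libraries only, which overlap sham through 1 low sham library.

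Sult2a2, a near copy of Sult2a1 with 62.1% of its 50-base stretches found elsewhere, changed by -6.42 ± 0.98, and by -3.44 ± 0.61 in the smaller comparison. Sult3a1 was 0.944 to 3.14 in the 4 IR libraries with Y-linked reads and little Xist. It was 108 and 29.8 in IR libraries 5 and 8, 111 to 1429 in the 3 IR libraries without Y-linked reads, and 1119 to 2688 in sham. Its log2 fold change was -5.81 ± 1.10 over all libraries and -1.77 ± 0.50 in the smaller comparison. With a term for Y-linked reads it was not called (limma adjusted p = 0.100). Sult3a2 was 0 to 3.47 in the 6 IR libraries with Y-linked reads, 14.6 to 200 in the other 3 and 42.5 to 109 in sham. Its log2 fold change of -3.59 ± 0.89 became 0.06 ± 0.51 (limma adjusted p = 0.925) once only the 3 were used. Without IR library 3 the log2 fold changes of Sult3a1 and Sult3a2 over the other libraries were -6.51 and -4.26. The low-count genes Sult2a3, Sult2a4, Sult2a5, Sult2a6 and Sult2a7 did not exceed 47.1 in IR and reached 56.6 to 177 in sham. Sult2a3, Sult2a4, Sult2a5 and Sult2a6 are the genes that passed the filter only through sham, and no IR library reached 10 in any of them. Sult2a7, which passed within both groups, changed by -2.65 ± 0.70 (limma adjusted p = 0.0019), and by -2.74 ± 0.78 in the smaller comparison. Sult5a1 changed by -0.49 ± 0.26 (limma adjusted p = 0.0868), and by -0.79 ± 0.28 (limma adjusted p = 0.0224) in the smaller comparison, which was not called with a term for Y-linked reads (limma adjusted p = 0.0605).

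**Figure D4:**
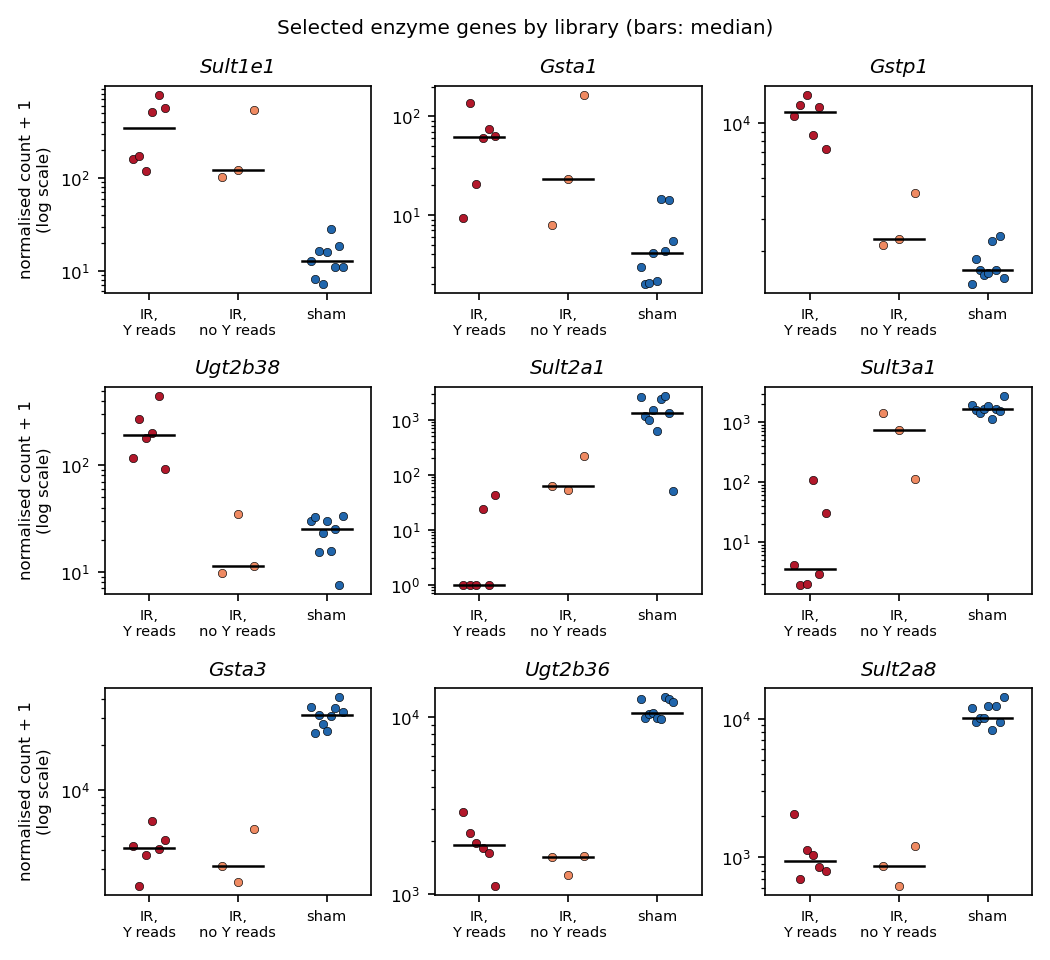
Normalised count + 1 on a log scale in each library for 9 genes, as IR libraries with Y-linked reads (6), IR libraries without (3) and sham (9); the bar is the median. Gsta3, Ugt2b36 and Sult2a8 lie at similar levels in both kinds of IR library, while Gstp1, Ugt2b38, Sult2a1 and Sult3a1 do not overlap between them.

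The alpha-class glutathione transferases, which detoxify lipid peroxides and electrophiles, fell in 3 of 4 genes. Gsta3 (ENSMUSG00000025934, chr1:21240589-21265661, plus strand), which in the mouse conjugates aflatoxin epoxide, had counts of 2332, 4064 and 6249 in IR and of 23998, 31509 and 41023 in sham. The groups did not overlap, and the gene was 8.05-fold lower (-3.01 ± 0.17, limma adjusted p = 6.09e-12; -3.15 ± 0.22 in the smaller comparison). Gsta4, which conjugates the lipid aldehyde 4-hydroxynonenal, had counts of 230, 252 and 522 in IR and of 869, 1174 and 1447 in sham (-1.97 ± 0.14; -1.79 ± 0.20 in the smaller comparison) and did not overlap either.

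Gsta1 and Gsta2 differed in direction. Gsta1, the gene that passed the filter only through IR, reached 10 in 7 IR libraries and 2 sham libraries. It had counts of 6.85, 59.8 and 162 in IR and of 1.02, 3.15 and 13.5 in sham. The groups overlapped at the low end of IR, and the log2 fold change was 3.18 ± 0.58, or 2.83 ± 0.79 in the smaller comparison. Gsta2 had counts of 13.8, 24.6 and 58.4 in IR and of 57.7, 136 and 255 in sham, a log2 fold change of -2.36 ± 0.28, or -2.11 ± 0.42. These 2 genes share sequence: 90.5% of the 50-base stretches of Gsta1 occur in other genes, mostly the gene Gm3776, and 49.8% of those of Gsta2 occur elsewhere, mostly in Gsta1, so the assignment of reads between them is uncertain.

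All 7 mu-class genes, a cluster on chromosome 3 (107895821 to 108044894), were lower in both comparisons, with medians of -1.35 and -1.49. Gstm1 carried most of the class, with counts of 1972, 3051 and 4460 in IR and of 5315, 7701 and 11438 in sham. It was 2.55-fold lower with no overlap (-1.35 ± 0.18, limma adjusted p = 8.28e-07; -1.41 ± 0.22 in the smaller comparison). Gstm3 fell most, with counts of 39.2, 57.6 and 127 in IR and of 357, 466 and 948 in sham (-2.97 ± 0.22; -3.49 ± 0.24 in the smaller comparison). The other 5 mu genes changed by between -1.91 (Gstm6) and -1.32 (Gstm7 and Gstm4), and in the smaller comparison by between -2.16 (Gstm6) and -1.25 (Gstm2).

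Among the remaining classes, theta, kappa and omega genes fell and 2 of the 3 pi genes rose. Gstt1, a theta enzyme that acts on small halogenated compounds, had counts of 969, 1568 and 1720 in IR and of 6681, 7265 and 9225 in sham. It was 5.13-fold lower with no overlap (-2.36 ± 0.11, limma adjusted p = 1.94e-13; -2.23 ± 0.12). Gstt2 and Gstt3 changed by -1.76 and -1.61, the mitochondrial and peroxisomal Gstk1 by -1.44, and Gsto1, an omega enzyme with thioltransferase activity, by -0.89, all without overlap. In the smaller comparison these were -1.70, -1.46, -1.54 and -0.80.

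Gstp1 (ENSMUSG00000060803, chr19:4035407-4037985, minus strand), the pi enzyme, had counts of 2146, 8625 and 14193 in IR and of 1324, 1576 and 2405 in sham (2.02 ± 0.33, limma adjusted p = 1.28e-05, 4.06-fold higher). The 6 IR libraries with Y-linked reads lay between 7258 and 14193, and the 3 without lay between 2146 and 4127, overlapping the top of sham. With these 3 only, the log2 fold change was 0.71 ± 0.20 (limma adjusted p = 0.00636), or 1.64-fold. Gstp2 rose by 1.92 ± 0.30 at low counts of 13.8, 43.8 and 69.5 in IR and of 4.14, 7.88 and 14.3 in sham (1.33 ± 0.37 in the smaller comparison). It shares 54.3% of its 50-base stretches, mostly with Gstp1. Gstp3 fell by 0.85 ± 0.20, and by 0.78 ± 0.23 in the smaller comparison.

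These changes altered the makeup of the glutathione transferase transcripts. Gstp1 made up 19.1 to 62.3% of the summed GST level per kb in IR libraries and 3.32 to 5.81% in sham libraries. Its share was 42.8 to 62.3% in IR libraries with Y-linked reads and 19.1 to 25.5% in those without, both above every sham library. Gsta3 made up 3.92 to 12.2% in IR and 24.4 to 32.3% in sham, again without overlap in either kind of IR library. The summed GST level per kb itself was 6367 to 16377 in IR and 19314 to 33286 in sham.

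**Figure D5:**
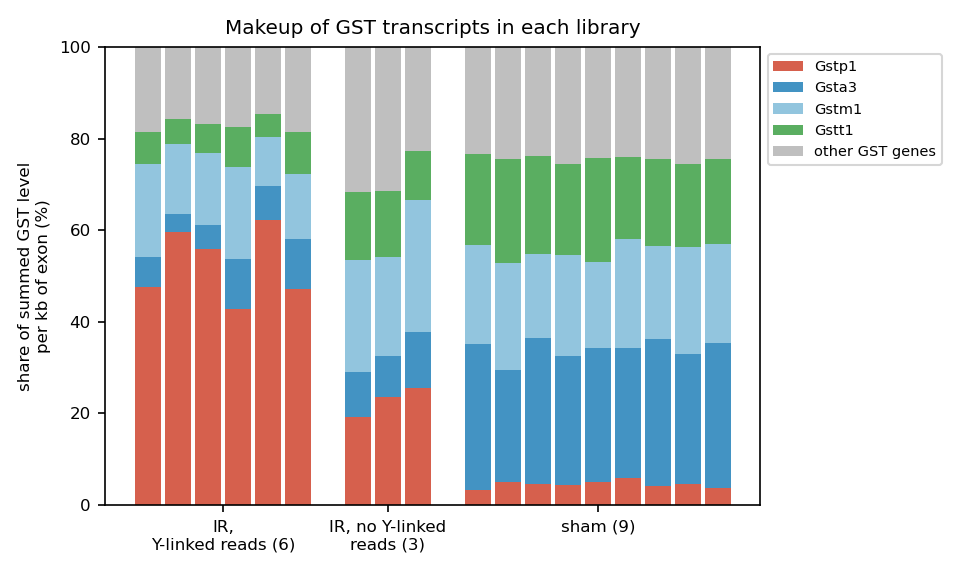
Share of the summed level per kb of the 19 GST genes that came from Gstp1, Gsta3, Gstm1, Gstt1 and the other genes, 1 bar per library. Gstp1 fills 42.8 to 62.3% of the bars of the IR libraries with Y-linked reads, 19.1 to 25.5% of the other IR bars and at most 5.81% of the sham bars.

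In 10 genes the 2 kinds of IR library did not overlap, as in 3.68% of all genes tested. Sult3a1, Sult3a2, Sult2a1, Ugt1a5, Ugt1a1 and Ugt1a9 were lower with Y-linked reads (1.92% of all genes tested were), and Gstm3, Ugt2b1, Gstp1 and Ugt2b38 were higher (1.76% of all genes tested were). Some gaps were narrow. Gstm3 was at least 52.5 with Y-linked reads and at most 52.4 without. Sult3a1 and Ugt1a9 were at most 108 and 190 with Y-linked reads and at least 111 and 198 without. Liver genes known for female-biased expression were all lower in IR (9 of 9, median log2 fold change -5.56, and 8 of 9 with a median of -2.85 in the smaller comparison). With a term for Y-linked reads, 5 of the 9 were called lower. Of 9 genes known to be male-biased, 7 were higher in IR with a median of 3.88, and 3 were lower with a median of -0.11 in the smaller comparison. The male-biased list holds Ddx3y, Uty, Kdm5d and Eif2s3y, which defined the 2 kinds of IR library, and the female-biased list holds Xist. The shift of the male-biased list between the comparisons was therefore partly fixed in advance.

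The counts of the other genes of the pathway stand beside shares of 38.2% higher and 37.2% lower over all genes tested. Of 7 genes of UDP-glucuronic acid supply, 3 rose and 2 fell, near those shares (median 0.20, and 3 and 2 with a median of 0.13 in the smaller comparison). Ugp2, which makes UDP-glucose, had counts of 792, 987 and 1243 in IR and of 4932, 5934 and 8020 in sham (-2.55 ± 0.10; -2.66 ± 0.15 in the smaller comparison), and Ugdh, which oxidises UDP-glucose, changed by 0.20 ± 0.20 and was not called. Of 8 genes of sulfate activation and transport, 6 fell and 1 rose (median -0.47, and 6 and 1 with a median of -0.44 in the smaller comparison). Papss2, which makes the activated sulfate that sulfotransferases use, had counts of 288, 479 and 590 in IR and of 2408, 3088 and 3477 in sham (-2.73 ± 0.13; -2.57 ± 0.12 in the smaller comparison), with no overlap.

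Of 17 genes of glutathione synthesis and turnover, 8 rose and 6 fell, also near the shares over all genes (median 0.22, and 7 and 5 with a median of 0.05 in the smaller comparison). Slc7a11, which imports cystine, was higher by 3.97 ± 0.44 (3.22 ± 0.59 in the smaller comparison), with counts of 6.85 to 74.5 in IR and of 0 to 4.14 in sham. Cth, which makes cysteine from cystathionine, fell by 2.80 ± 0.22, and Chac2, which degrades glutathione, by 2.86 ± 0.18 (by 3.02 and 2.87 in the smaller comparison). Of 14 target genes of NRF2 outside the enzyme families, 8 rose and 5 fell (median 1.08, and 7 and 4 with a median of 0.92 in the smaller comparison). Among those that rose were Srxn1 (2.78 ± 0.34, and 2.69 ± 0.41) and Hmox1 (1.97 ± 0.42, and 1.27 ± 0.32). The lowest log2 fold change of the list was -1.47, and -1.32 in the smaller comparison. Gclc, Gclm and Slc7a11 also count in the glutathione list, and Nqo1 and Ephx1 among the other conjugation enzymes below.

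Other conjugation enzymes fell in 17 of 22 genes and rose in 3 (median -1.35, and 18 and 2 in the smaller comparison). The methyltransferase Inmt had counts of 466, 1019 and 3057 in IR and of 17472, 23390 and 37934 in sham (-4.51 ± 0.32; -4.85 ± 0.34 in the smaller comparison), and the histamine methyltransferase Hnmt changed by -3.48 ± 0.23 (-3.76 ± 0.19). Of 15 transporters that carry conjugates, 9 fell and 4 rose (median -0.82, and 9 and 3 with a median of -0.80 in the smaller comparison). The uptake carriers Slco1a4, Slco1b2 and Slco1a1 changed by -4.09, -3.29 and -2.54, and in the smaller comparison by -2.92, -3.03 and -3.66. Of 9 xenobiotic P450 genes, which act before conjugation, 6 fell and 1 rose (median -1.40, and 6 lower with a median of -1.35 in the smaller comparison), with Cyp3a11 at -2.93 ± 0.23 (-2.41 ± 0.18). Of 17 regulators and partners of these enzymes, 11 fell and 4 rose (median -0.51, and 9 and 4 with a median of -0.65 in the smaller comparison), with the largest falls in Cyb5a (-2.47), Esr1 (-2.11) and Ppara (-1.68), which changed by -2.45, -1.79 and -1.73 in the smaller comparison.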

How the data were processed

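Liver RNA of 18 samples (3 genotypes, 2 surgeries, 3 samples each) was analysed from a single deposited table. Reads were processed with Trimmomatic 0.33, STAR 2.5.0a and DESeq2 1.14 on GRCm38, per the submitters' processing notes (read counter and annotation: not given in the sources used here). Per its name, the deposited table is of DESeq2 normalised counts, a signal per gene scaled by the authors with size factors, not raw counts. Rows were matched by Ensembl ID to GENCODE vM21, which gave a symbol to 47224 of 47729 rows. Columns headed IR were taken as IR and columns headed W as sham by elimination.

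Values were tested as log2(value + 1) with limma 3.58.1 (R 4.3.3) and an intensity trend, over all 13590 rows with at least 10 in at least 3 columns, with Benjamini-Hochberg adjustment over all of them and a threshold of 0.05. Fold changes are on that log2 scale, which can understate or overstate the change of genes with low counts in some libraries. The code was tested on simulated data. In 17 columns the values were whole multiples of 1 read within 0.001, and edgeR 4.0.16 and DESeq2 1.42.0 were run on these recovered reads as alternatives. The limma log2 fold change of Sult2a3 was smaller (-3.92, against -5.47 in edgeR and -5.71 in DESeq2). Other genes at or near 0 in several IR libraries differed in both directions. The limma value was smaller in size for Sult2a4 (-2.79 against -4.32 and -4.40) and Sult2a5 (-4.81 against -5.22 and -5.30). It was also smaller for Sult2a6 (-2.44 against -4.96 and -5.15). It was larger in size for Sult3a1 (-5.81 against -2.67 and -3.02) and Sult3a2 (-3.59 against -0.96 and -2.08). It was also larger for Sult2a1 (-6.72 against -4.91 and -4.92) and Sult2a2 (-6.42 against -4.43 and -4.45). Levels per kb use the summed exon length of GENCODE vM21. Promoter windows are those of RefSeq on GRCm38.p6, aligned in pairs with Biopython 1.88. Other alternatives were pseudocounts, filters, scalings, array weights and leaving out each column. The comparisons without the 6 IR libraries with Y-linked reads, without the other 3, and with a term for Y-linked reads were added after seeing the data.

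The rule named, in each family, the 2 genes highest per kb in sham and the 2 with the smallest adjusted p per direction. Members whose groups did not overlap, and up to 3 genes with the largest change from each other list, could also be named. Counts are not given for all of these genes, and Gstm5, Gstm6, Ugt1a9, Gstk1 and Gstt2 are among those without them. Further members were described after their values were seen. The members and lists were chosen with earlier results of these data known.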

Additional observations from a re-analysis of the deposited data

Results flagged for a closer look

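Within the 9 libraries of each surgery group, a single value far from the other 8 by Dixon's ratio on the log2 scale was looked for in each of the 50 genes. This gave 9 flags among 100 groups, and chance flags about 1 in 20 groups if values are normally distributed. Sham library 8 had the highest count of Gstm2 (789, others 418 to 510), of Gstm7 (902, others 426 to 590) and of Gstp3 (697, others 291 to 389). Sham library 9 had the lowest count of Sult2a1 (49.6, others 636 to 2683) and of Sult2a2 (154, others 552 to 2037). IR library 3, which had no Y-linked reads, had the highest IR count of Sult2a4 (9.79, others 0) and of Sult2a6 (4.90, others 0 to 0.944). In IR these genes were at 0 in 8 and 7 libraries, so that chance rate does not apply to their flags. IR library 9, also without Y-linked reads, had the highest IR count of Gsta2 (58.4, others 13.8 to 27.4). IR library 4 had the lowest IR count of Ugt1a9 (109, others 163 to 232). The causes were not tested.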

How the results depend on the processing

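Of the 48 members with a value under each of 33 settings that did not use the Y-linked reads, 43 kept their call in all of them; Sult2a4 and Sult2a6 dropped out under a filter of at least 50 in 3 columns. No paired analysis was possible because the column headers carry no number that ties a column to a labelled sample. Leaving out each library in turn gave 5083 to 5200 genes higher and 4970 to 5075 lower, 5 members higher and 44 to 45 lower, a member median of -2.13 to -2.02, and 28 to 29 higher and 56 to 61 lower genes of the other pathway lists (30 and 59 with all libraries). Requiring an absolute log2 fold change of at least 1 left 2244 genes higher and 2377 lower, and 12 higher and 39 lower genes of the other lists. The member median was -1.78 without the IR libraries with Y-linked reads and -1.78 with a term for those reads; with these settings Sult3a2 became 0.06 and 0.06, and Ugt2b38 became -0.46 and -0.46. The members called lower were then 42 and 40, beside 4545 and 4272 of all genes tested. Genes of the other pathway lists were then 25 and 24 higher, and 56 and 54 lower. Sult2a4 and Sult2a6 lost their calls in both of these fits, and Sult3a1 lost its call with the term. Sult5a1, not called over all libraries, was called lower without those IR libraries but not with the term. Sult2a6 was also not called with array weights (limma adjusted p = 0.053). edgeR and DESeq2 on recovered reads each called 43 members lower and 5 higher, and did not call Sult3a2 (log2 fold change -0.96, adjusted p = 0.312, and -2.08, adjusted p = 0.0651). Sult5a1 was called lower under quantile normalization, array weights and without IR library 4 (-0.65, limma adjusted p = 0.0157). Depth limits the low-count genes, Sult2a3 to Sult2a7 among them.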

Other observations

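Among sham libraries, the low-count genes Sult2a4 and Sult2a6 were spread widely. Sult2a6 was 0 to 0.991 in sham libraries 1 to 4, 25.4 to 56.6 in sham libraries 5 to 8 and 5.63 in sham library 9. These are values within 1 surgery group whose genotypes were not resolved, and no comparison was made between them.

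Non-parenchymal markers also differed between IR and sham, beside shares of 38.2% higher and 37.2% lower over all genes tested. Kupffer cell markers fell in 5 of 6 genes, among them Vsig4 at 84.8, 187 and 292 (lowest, median, highest) in IR and at 669, 937 and 1020 in sham. T and NK cell markers fell in 6 of 6 genes and B cell markers in 4 of 4. Cholangiocyte markers rose in 4 of 5 genes, with Sox9 at 229, 845 and 2374 in IR and at 16.9, 19.9 and 30.0 in sham. Proliferation markers fell in 3 of 3 genes tested. Of 5 monocyte markers 3 rose and 1 fell, and of 6 stellate cell and fibroblast markers 3 rose and 3 fell. In the smaller comparison Kupffer cell, T and NK cell, B cell and proliferation markers fell in 5, 5, 4 and 3 genes, and cholangiocyte markers rose in 4. With a term for Y-linked reads these counts were 5, 4, 4, 3 and 2. The part of these shifts in the changes of the conjugation enzymes was not tested.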
